A study of Mus musculus with 24 samples.

Results

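The Iroquois and limb patterning factors described here are 9 transcription factor genes, taken by name from a count table of 56748 mouse genes: Irx1, Irx2, Irx3, Irx5, Tbx4, Tbx5, Tbx15, Pitx1 and Meox2. The genes were selected on their names, as Iroquois, T-box, Pitx and related patterning factors, with earlier results of these data known. The levels by group and the differences between lines and between cell types are counted among the values they were chosen by; whether the aldosterone values were also used is not recorded. Differences between lines and between cell types are therefore given for these 9 genes as descriptions, without p-values. Tests of the 9 genes are given for aldosterone alone. The libraries came from primary cells of the hindlimb muscle of mice under 5 days old, in 8 groups of 3 labelled biological replicates, and were sequenced as bulk poly(A) RNA. Both lines are on the C57BL/10 background: mdx mice carry the Dmdmdx mutation of the dystrophin gene, and C57 mice do not.

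Myotubes, the multinucleate cells formed by fusion of muscle precursors, were cultured with horse serum that had been stripped with charcoal. The groups were mdx myotubes with 1 µM aldosterone, mdx myotubes with 0.001% DMSO as vehicle, C57 myotubes with aldosterone and C57 myotubes with vehicle, each for 48 h. Fresh medium was then conditioned by the myotubes for 15 h before lysis. The other 4 groups were mdx and C57 fibroblasts kept for 24 h in that conditioned medium, so in fibroblasts "aldosterone" means medium of aldosterone-treated myotubes. Fibroblasts received medium of their own line, so the line of the cells and the line of the medium cannot be told apart. The level of Dmd differed between the lines in every library, at 35.3 to 70.1 CPM (the gene's read count scaled to the size of its library) in mdx myotubes against 352 to 485 CPM in C57 myotubes, and 7.28 to 12.2 CPM in mdx fibroblasts against 23.1 to 37.0 CPM in C57 fibroblasts. Total counts ranged from 14133165 to 31144746 per myotube library and from 16964960 to 42698139 per fibroblast library. The lines also differed at genes other than Dmd: Tlr4 had 21.8 to 30.4 CPM in the 12 mdx libraries and 0 counts in the 12 C57 libraries.

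Iroquois genes encode homeodomain proteins that divide embryonic fields such as the limb bud and the neural plate into territories, and in mouse Irx3 and Irx5 lie side by side and act together in early limb patterning. Pitx1 and Tbx4 are the classical factors of hindlimb identity and outgrowth, while Tbx5 has the matching role in the forelimb. Tbx15 acts in skeleton formation and in glycolytic muscle fibres of the mouse, and Meox2 is a homeobox gene needed for normal limb muscle development in the mouse. In adult tissues such factors often stay on in connective tissue cells as a record of the body position the cells came from.

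Promoter sequence (300 bases, from 250 bases before to 50 bases after the annotated start) was held by the RefSeq table of build GRCm38.p6 for 4 of the 9 genes: Irx3, Tbx4, Meox2 and Irx2. Irx3 is shown because its level differed most in CPM between the lines in fibroblasts, Irx2 as an Iroquois gene whose lines overlapped, and Tbx4 as the hindlimb factor. The counted genes are on build mm39, so these coordinates serve for the sequences alone. Capitals mark matches, on either strand, to 3 short motifs common in promoters. The GC box was searched as GGGCGG. The other motifs were the CCAAT box, which its name spells out, and the core of the TATA box, searched as TATAAA.
Irx3, chr8:91801605-91801904, minus strand: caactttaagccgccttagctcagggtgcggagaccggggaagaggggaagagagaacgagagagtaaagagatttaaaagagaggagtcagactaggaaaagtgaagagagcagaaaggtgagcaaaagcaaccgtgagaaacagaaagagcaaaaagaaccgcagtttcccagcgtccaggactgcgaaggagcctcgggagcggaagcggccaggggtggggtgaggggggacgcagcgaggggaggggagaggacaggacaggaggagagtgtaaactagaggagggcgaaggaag
Irx2, chr13:72628570-72628869, plus strand: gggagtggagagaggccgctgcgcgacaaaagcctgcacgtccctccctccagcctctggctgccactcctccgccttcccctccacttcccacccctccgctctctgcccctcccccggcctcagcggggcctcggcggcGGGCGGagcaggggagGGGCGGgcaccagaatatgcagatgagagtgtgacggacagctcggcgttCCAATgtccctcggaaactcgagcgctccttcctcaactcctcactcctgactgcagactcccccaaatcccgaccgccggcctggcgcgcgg
Tbx4, chr11:85896515-85896814, plus strand: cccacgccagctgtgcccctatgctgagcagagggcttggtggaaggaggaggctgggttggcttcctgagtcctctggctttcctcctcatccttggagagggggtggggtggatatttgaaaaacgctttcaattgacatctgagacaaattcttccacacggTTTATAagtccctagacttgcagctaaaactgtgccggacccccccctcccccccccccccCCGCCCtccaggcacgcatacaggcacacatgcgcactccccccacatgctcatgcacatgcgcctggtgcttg

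The Irx3 window held 0 matches to these boxes and had a GC content of 56%. The Irx2 window held 2 GC boxes and 1 CCAAT box at 69% GC, and the Tbx4 window held 1 GC box and 1 TATA box at 59% GC. Of 32851 promoters of the same length in the table, 35.7% held a GC box, 37.4% a CCAAT box and 13.6% a TATA box. A match is a run of letters and not a known binding site.

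Irx3 and Irx5 showed the widest gap between the lines, and it was widest in fibroblasts. In vehicle medium, Irx3 had 78.8, 98.4 and 125 CPM in mdx fibroblasts, against 24.1, 28.8 and 27.9 CPM in C57 fibroblasts. With aldosterone medium the gene had 124, 103 and 111 CPM in mdx fibroblasts, against 25.7, 23.5 and 28.8 CPM in C57 fibroblasts. Every mdx library lay above every C57 library under both media. The log2 change of mdx over C57 was 1.91 (SE 0.15) in vehicle medium, 3.76-fold, and 2.11 (SE 0.16) in aldosterone medium, 4.31-fold.

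Irx5 had 16.1, 16.2 and 19.3 CPM in mdx fibroblasts in vehicle medium, against 3.85, 3.89 and 3.74 CPM in C57 fibroblasts. In aldosterone medium it had 17.7, 15.97 and 15.0 CPM in mdx fibroblasts, against 3.37, 3.53 and 3.47 CPM in C57 fibroblasts. The C57 libraries lay close together and the lines did not overlap. The log2 change was 2.17 (SE 0.11) in vehicle medium and 2.22 (SE 0.11) in aldosterone medium. Leaving out any 1 library moved the log2 change of Irx3 between 1.73 and 2.04 in vehicle medium and that of Irx5 between 2.09 and 2.23. Of the 9 genes, 2 (Irx3 and Irx5) were called at an adjusted p below 0.05 in fibroblasts under each medium. Over all genes tested there, 1.1% were called in vehicle medium and 1.23% in aldosterone medium. The lines were part of what was known when the 9 genes were proposed, so nothing is read from these counts.

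In myotubes the same pair was also higher in mdx than in C57, at lower levels. Irx3 had 14.3, 27.2 and 17.6 CPM in mdx vehicle myotubes, against 9.89, 10.5 and 11.5 CPM in C57 vehicle myotubes. Irx5 had 7.83, 11.4 and 8.33 CPM in mdx vehicle myotubes, against 4.71, 5.53 and 3.20 CPM in C57 vehicle myotubes. The lines did not overlap for either gene, and mdx replicate 2 was the highest library of both. The log2 change in vehicle myotubes was 0.88 (SE 0.26) for Irx3 and 1.00 (SE 0.21) for Irx5. With aldosterone it was 1.34 (SE 0.26) for Irx3, from 14.1, 26.7 and 17.9 CPM in mdx and 7.90, 6.96 and 8.10 CPM in C57. For Irx5 with aldosterone it was 1.20 (SE 0.21), from 8.69, 10.2 and 8.08 CPM in mdx and 3.52, 4.004 and 4.03 CPM in C57.

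The difference between the lines was smaller in myotubes than in fibroblasts for both genes under vehicle. The log2 change in myotubes minus that in fibroblasts was -1.03 (SE 0.31) for Irx3 and -1.17 (SE 0.23) for Irx5. It was positive for the hindlimb factors, at 1.73 (SE 0.39) for Pitx1 and 1.21 (SE 0.33) for Tbx4. Of the 9 genes, 1 (Irx5) was called for this difference, beside 0.23% of all genes tested, and nothing is read from that call.

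**Figure D1:**
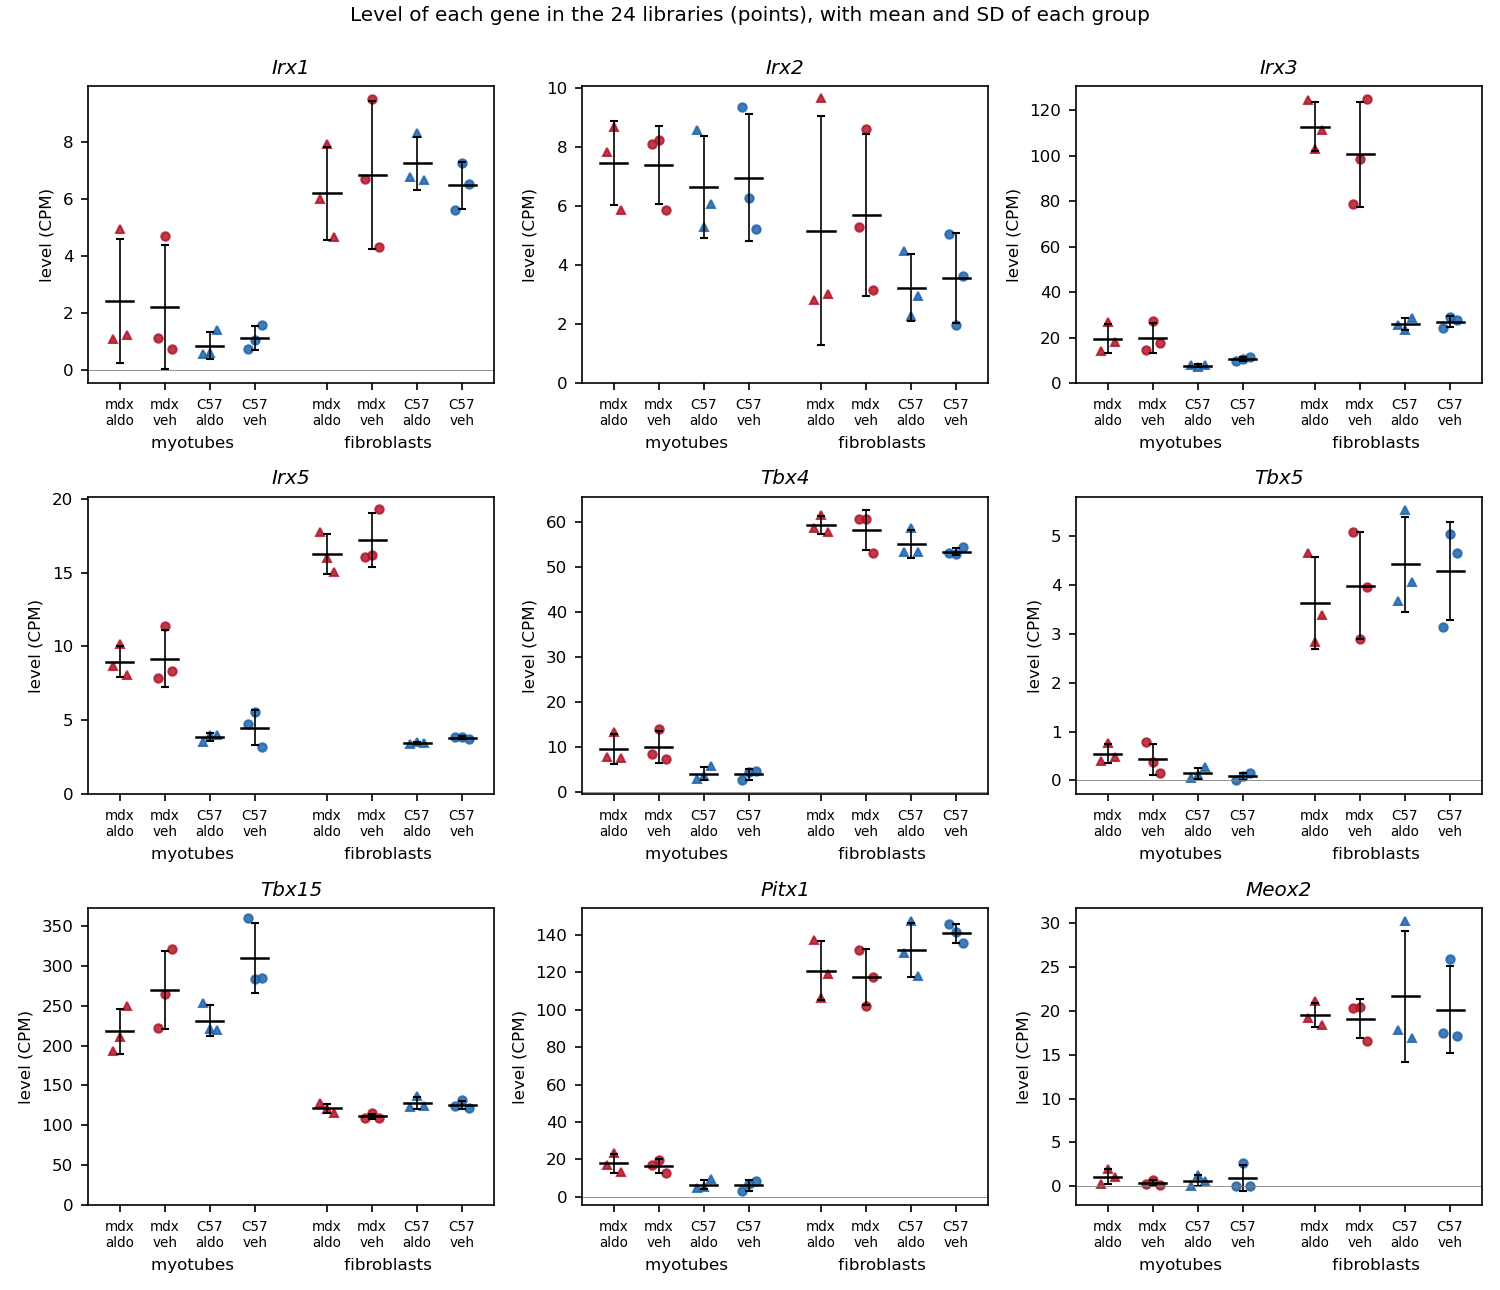
Level of each of the 9 genes in CPM (y axis, linear, its own scale per gene) in the 24 libraries, by group (x axis: mdx aldosterone, mdx vehicle, C57 aldosterone and C57 vehicle, in myotubes on the left and fibroblasts on the right). Points are libraries, the horizontal bar is the mean and the whisker the SD (n = 3). Irx3 reached 78.8 to 125 CPM in mdx fibroblasts, against 23.5 to 28.8 CPM in C57 fibroblasts, while Tbx4 lay between 52.8 and 61.5 CPM in all 12 fibroblast libraries.

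The genes beside Irx3 and Irx5 were read to see how far the difference between the lines reached along chromosome 8. On build mm39, Irx3 spans chr8:92525153-92528695 on the minus strand and Irx5 spans chr8:93084253-93102914 on the plus strand, with 555.6 kb between their starts. From 500 kb before Irx3 to 500 kb past Irx5 lay 25 protein-coding and lncRNA genes, the pair included, of which 10 were tested in fibroblasts and 7 in myotubes. Irx3os, an antisense RNA gene whose first base lies at -1.7 kb from the Irx3 start, averaged 2.84 ± 0.127 CPM in mdx fibroblasts and 0.890 ± 0.272 CPM in C57 fibroblasts in vehicle medium (SD, n = 3 each). Its log2 change was 1.69 (SE 0.23) in vehicle medium and 1.87 in aldosterone medium. Irx3os overlaps Irx3 and the kit did not record strand, so reads of the pair cannot be told apart. Irx3os had 718 counts over all libraries, against 27533 for Irx3. Its change is therefore a description without a p, as for Irx3.

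Crnde, a long noncoding RNA gene that starts back to back with Irx5, averaged 7.56 ± 0.517 CPM in mdx fibroblasts and 2.84 ± 0.295 CPM in C57 fibroblasts in vehicle medium (SD, n = 3 each). It rose with a log2 change of 1.42 (SE 0.15, adjusted p 0.000136, by the quasi-likelihood test of edgeR, Benjamini-Hochberg adjusted over all genes). In aldosterone medium the log2 change was 1.33 (adjusted p 0.000262, edgeR). In vehicle myotubes Crnde averaged 2.92 CPM in mdx and 3.49 CPM in C57, a log2 change of -0.29 (SE 0.23, adjusted p 0.587, edgeR). The change of Crnde in myotubes minus that in fibroblasts was -1.71 (SE 0.27, adjusted p 0.0147, edgeR), so that at this start the lines differed in fibroblasts more than in myotubes.

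Farther out the direction was not the same. Fto and Rpgrip1l, whose starts lie at -488.5 and -488.8 kb from that of Irx3, had log2 changes of -0.19 (adjusted p 0.0765, edgeR) and -0.20 (adjusted p 0.274, edgeR) in vehicle fibroblasts. In vehicle myotubes Fto had -0.32 (adjusted p 0.219, edgeR) and Rpgrip1l -0.15 (adjusted p 0.577, edgeR). With aldosterone Fto had -0.41 in myotubes (adjusted p 0.134 by edgeR and 0.0223 by DESeq2). Lpcat2, a lysophospholipid acyltransferase gene 1053.3 kb from the Irx3 start, averaged 3.96 CPM in mdx fibroblasts and 8.05 CPM in C57 fibroblasts in vehicle medium. It fell by 1.02 on the log2 scale (SE 0.19, adjusted p 0.0140, edgeR). In vehicle myotubes Lpcat2 averaged 2.27 CPM in mdx and 5.09 CPM in C57, and the lines did not overlap. Its log2 change there was -1.20 (SE 0.31, adjusted p 0.156 by edgeR and 0.0184 by DESeq2). With aldosterone it was -1.24 in myotubes (adjusted p 0.134 by edgeR and 0.0107 by DESeq2). Mmp2, the gelatinase A gene, averaged 634 CPM in mdx fibroblasts and 815 CPM in C57 fibroblasts in aldosterone medium, a log2 change of -0.37 (SE 0.09, adjusted p 0.0475, edgeR). In vehicle medium its log2 change was -0.31 (adjusted p 0.109, edgeR). Gm45472, a gene with no name beyond its model number, fell by 1.40 on the log2 scale in aldosterone medium (adjusted p 0.0398, edgeR). It averaged 0.817 CPM in mdx fibroblasts and 2.25 CPM in C57 fibroblasts there. Gm45472 overlaps both Mmp2 and Lpcat2, so its reads cannot be told apart from theirs.

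**Figure D2:**
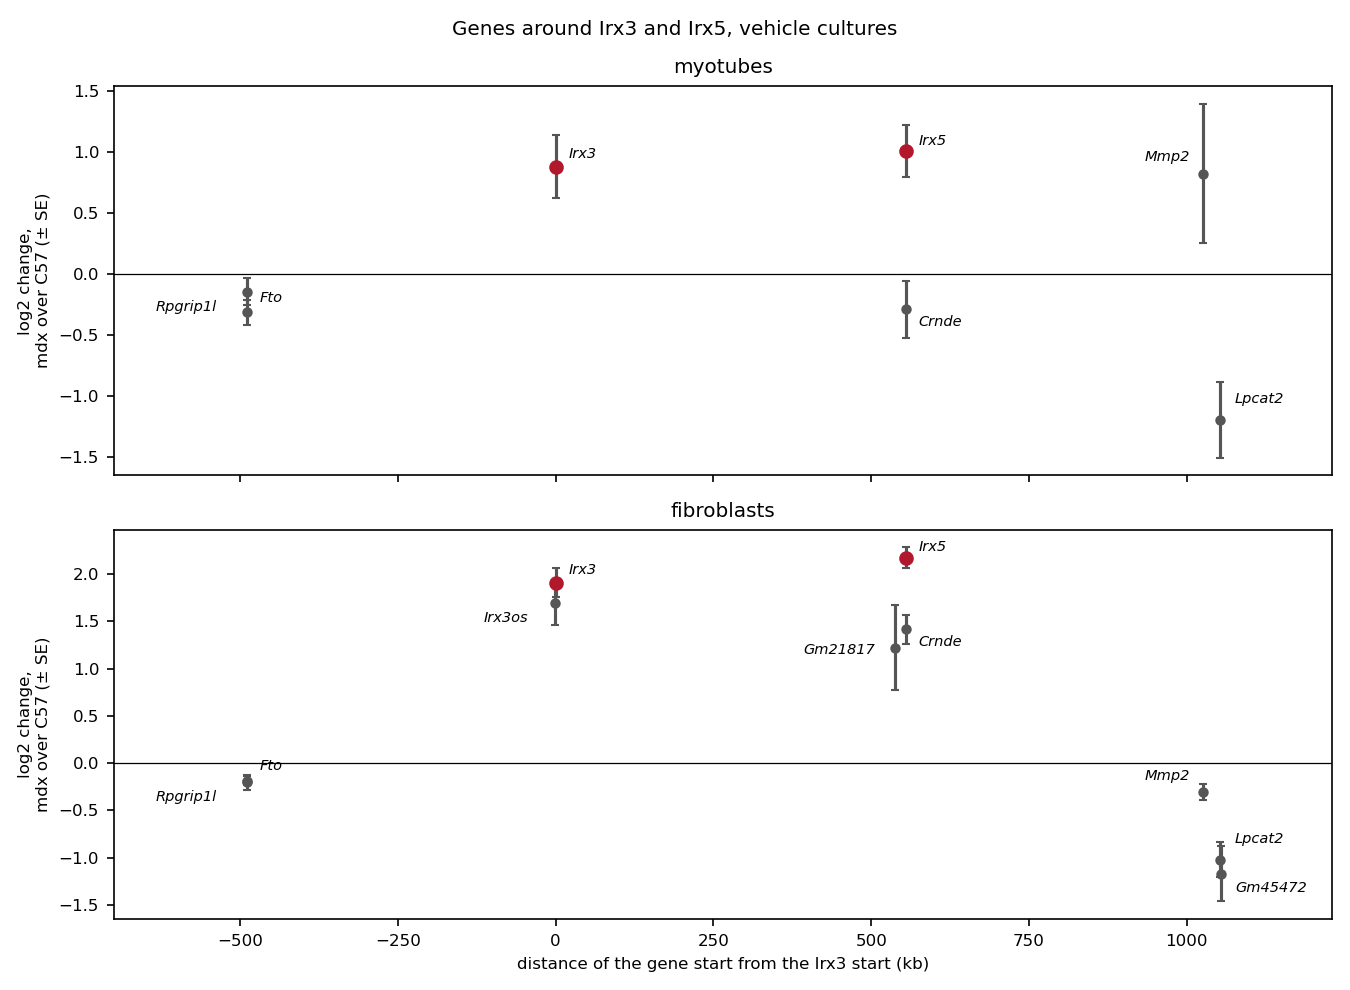
Log2 change of mdx over C57 in vehicle cultures (y axis, ± SE) of the tested genes around Irx3 and Irx5, by the distance of each gene's start from the Irx3 start in kb (x axis), in myotubes (top) and fibroblasts (bottom). Irx3 and Irx5 are in red. In fibroblasts Irx3os (1.69) and Crnde (1.42) lie with Irx3 and Irx5 above 0, and Lpcat2 (-1.02) lies below.

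Around all 9 genes, 104 other genes lay within 500 kb, of which 39 were tested in myotubes and 46 in fibroblasts. In fibroblasts 2 rose and 1 fell in vehicle medium, and 3 rose and 3 fell in aldosterone medium, all near Irx3 and Irx5 except Prelid1. Those that rose include Irx3os under each medium, whose reads cannot be told from those of Irx3. Those that fell in aldosterone medium include Gm45472, which overlaps Mmp2 and Lpcat2. Over all genes tested, 1.1% were called in vehicle medium and 1.23% in aldosterone medium. Prelid1, a mitochondrial lipid transfer gene 499.8 kb from Pitx1, rose by 0.23 on the log2 scale in aldosterone medium (adjusted p 0.0452, edgeR). In myotubes edgeR called 0 of 39 under either treatment (8 at an unadjusted p below 0.05 and 1 by DESeq2 with vehicle, 7 and 2 with aldosterone).

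Pitx1 and Tbx4, the hindlimb pair, were among the highest of the 9 genes in fibroblasts, with little difference between the lines there. Pitx1 had 132, 102 and 118 CPM in mdx vehicle fibroblasts, against 146, 142 and 136 CPM in C57 vehicle fibroblasts. With aldosterone medium Pitx1 had 137, 106 and 119 CPM in mdx, against 130, 147 and 118 CPM in C57. The vehicle libraries of the lines did not overlap and the aldosterone libraries did. The log2 change was -0.26 (SE 0.12) in vehicle medium and -0.13 (SE 0.12) in aldosterone medium. Tbx4 had 60.7, 60.7 and 53.1 CPM in mdx vehicle fibroblasts, against 53.1, 52.8 and 54.4 CPM in C57 vehicle fibroblasts. In aldosterone medium it had 58.6, 61.5 and 57.8 CPM in mdx, against 53.4, 58.7 and 53.3 CPM in C57. The lines overlapped under both media, with log2 changes of 0.13 (SE 0.06) and 0.10 (SE 0.06).

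Tbx5, the forelimb counterpart, was low in fibroblasts. It had 5.08, 2.90 and 3.96 CPM in mdx vehicle fibroblasts, against 3.14, 5.04 and 4.64 CPM in C57 vehicle fibroblasts, and the lines overlapped. With aldosterone medium Tbx5 had 4.65, 2.84 and 3.39 CPM in mdx, against 3.67, 5.52 and 4.06 CPM in C57. Per kilobase of gene length, Tbx4 averaged 15.7 to 17.4 CPM in the 4 fibroblast groups and Tbx5 averaged 0.776 to 0.945 CPM. The hindlimb factor was the higher of the pair in every fibroblast group, and the labels give hindlimb muscle as the source.

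In myotubes Pitx1 and Tbx4 were lower than in fibroblasts and differed between the lines. Pitx1 had 17.0, 19.8 and 12.6 CPM in mdx vehicle myotubes, against 2.85, 7.06 and 8.28 CPM in C57 vehicle myotubes. With aldosterone it had 17.1, 23.2 and 13.4 CPM in mdx, against 4.91, 5.25 and 9.36 CPM in C57. Every mdx library lay above every C57 library, and the log2 change was 1.44 (SE 0.39) with vehicle and 1.44 (SE 0.38) with aldosterone. Tbx4 had 8.64, 14.1 and 7.49 CPM in mdx vehicle myotubes, against 2.66, 4.61 and 4.72 CPM in C57 vehicle myotubes. With aldosterone it had 7.84, 13.4 and 7.71 CPM in mdx, against 3.04, 3.62 and 5.79 CPM in C57. Here too the lines did not overlap, with log2 changes of 1.32 (SE 0.35) with vehicle and 1.20 (SE 0.35) with aldosterone. Tbx5 was not tested in myotubes, where its 12 libraries held 0 to 23 counts, or 0.153 to 0.779 CPM in mdx and 0 to 0.271 CPM in C57.

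Of the 8 genes tested in myotubes, the lines did not overlap at 4 (Irx3, Irx5, Pitx1 and Tbx4, all higher in mdx) under each treatment. Over all genes the lines did not overlap at 19.5% with vehicle and 18.3% with aldosterone, and mdx was the higher line at 11.2% and 11.5%. By edgeR's quasi-likelihood test 0 of 8 were called with vehicle (4 at an unadjusted p below 0.05, and 4 by DESeq2), beside 0.362% of all genes. With aldosterone 1 of 8 (Irx5) was called, beside 0.311% of all genes. Omitting each of the 6 libraries in turn ended that call every time, and without mdx replicate 1 Irx3 was called instead. With the number as a block, Irx5 and Tbx4 were called with vehicle (beside 2.75% of all genes) and Irx3 and Irx5 with aldosterone (beside 2.52%), but deviations of same-numbered myotube cultures of the lines correlated at -0.156 to 0.338, not all above 0.1, so the numbers were not taken to pair the lines. Nothing is read from these counts, for the reason given above.

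Markers of fibroblasts were read in the same myotube libraries. The summed level of 7 fibroblast markers (Pdgfra, Col1a1, Col3a1, Dcn, Lum, Thy1 and Postn) was 882 to 3448 CPM in mdx myotubes, against 316 to 956 CPM in C57 myotubes. In fibroblasts it was 11438 to 17179 CPM in mdx and 11410 to 20067 CPM in C57. The sum was highest in mdx replicate 2, at 3448 CPM with aldosterone and 3272 CPM with vehicle, the culture in which Irx3, Irx5, Pitx1 and Tbx4 were highest too. Among the other mdx libraries the genes did not share 1 order. With vehicle the sum was 976 CPM in mdx replicate 1 and 1268 CPM in mdx replicate 3. Pitx1 (17.0 against 12.6 CPM) and Tbx4 (8.64 against 7.49 CPM) were higher in replicate 1. Irx3 (14.3 against 17.6 CPM) and Irx5 (7.83 against 8.33 CPM) were higher in replicate 3. Of the 7 markers, edgeR called 0 between the lines in myotubes (2 at an unadjusted p below 0.05 and 0 by DESeq2 with vehicle, 4 and 1 with aldosterone). The summed level of 9 skeletal muscle markers was 23803 to 36475 CPM in mdx myotubes, against 34129 to 40040 CPM in C57 myotubes. The summed level of 5 endothelial markers was lower, at 28.8 to 66.2 CPM in mdx myotubes against 76.7 to 232 CPM in C57 myotubes. In bulk libraries more cells of a type and more RNA per cell cannot be told apart, and the part of these markers in the difference between the lines was not tested. In fibroblasts the skeletal muscle sum was 15.6 to 153 CPM in mdx and 14.4 to 118 CPM in C57.

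**Figure D3:**
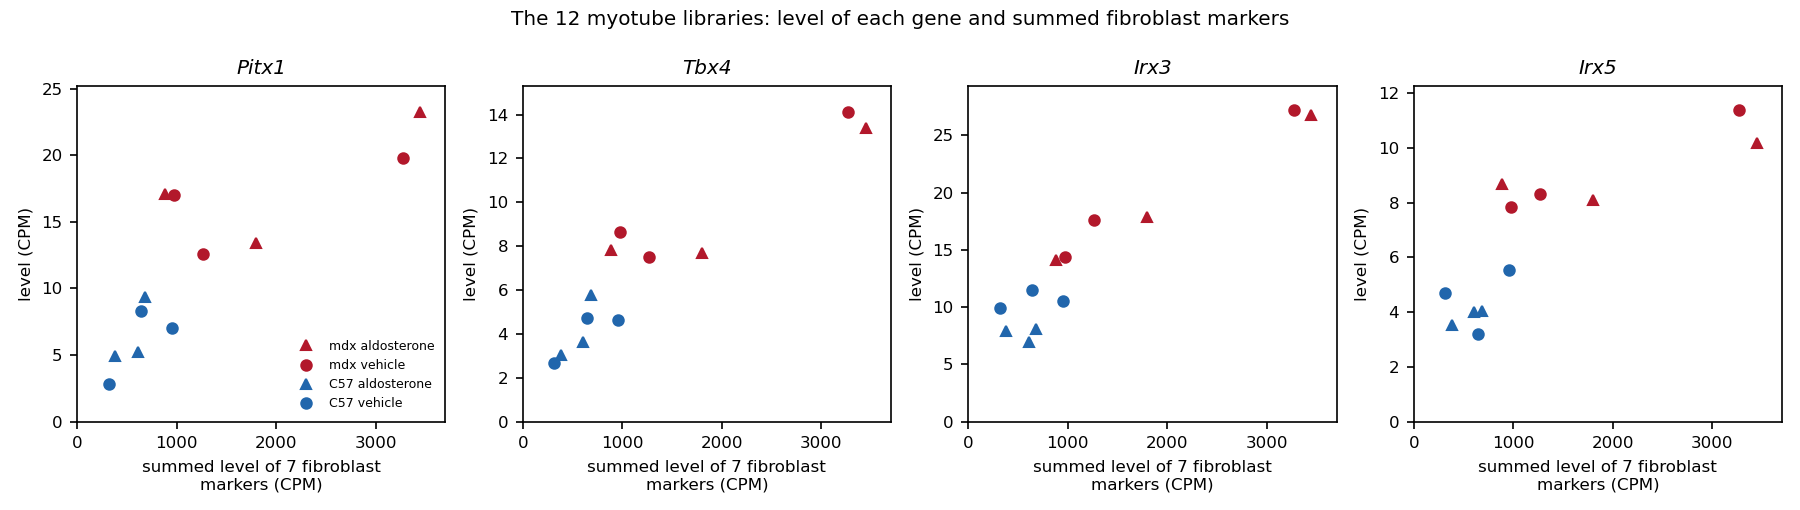
Level of Pitx1, Tbx4, Irx3 and Irx5 in CPM (y axis) against the summed level of 7 fibroblast markers in CPM (x axis) in the 12 myotube libraries. Red marks mdx and blue C57, triangles aldosterone and circles vehicle. The libraries of mdx replicate 2, at 3448 and 3272 CPM of markers, are highest for all 4 genes, and C57 libraries lie at 316 to 956 CPM.

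In fibroblasts the level of fibroblast markers overlapped between the lines, and 0 of 7 were called by edgeR under either medium (0 and 1 at an unadjusted p below 0.05, 0 by DESeq2). The summed level of 5 cartilage and bone markers (Sox9, Acan, Col2a1, Runx2 and Sp7) was lower there, at 416 to 863 CPM in mdx fibroblasts against 1126 to 3053 CPM in C57 fibroblasts, without overlap. Of these 5, 1 was called lower in vehicle medium and 0 in aldosterone medium by edgeR (4 at an unadjusted p below 0.05 and 1 by DESeq2 in aldosterone medium). These values stand beside the higher Irx3 and Irx5 of mdx fibroblasts, and their part in it was not tested.

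Irx1 and Irx2, neighbours on chromosome 13 with 665.1 kb between their starts, varied among replicates more than between lines. Irx1, which is known from digit and lung development, had 6.72, 9.50 and 4.34 CPM in mdx vehicle fibroblasts, against 5.62, 7.28 and 6.55 CPM in C57 vehicle fibroblasts. In myotubes with vehicle it had 1.15, 4.71 and 0.764 CPM in mdx, against 0.747, 1.05 and 1.60 CPM in C57. With aldosterone it had 1.11, 4.95 and 1.22 CPM in mdx, against 0.587, 0.622 and 1.40 CPM in C57. The mdx mean in myotubes thus rests on replicate 2, the culture with the highest fibroblast markers, and the vehicle log2 change of 0.95 (SE 0.77) was -0.19 without it. In aldosterone medium fibroblasts had 6.02, 7.92 and 4.67 CPM in mdx, against 6.78, 8.32 and 6.67 CPM in C57, and the lines overlapped.

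Irx2 had 5.29, 8.61 and 3.16 CPM in mdx vehicle fibroblasts, against 5.05, 1.98 and 3.64 CPM in C57 vehicle fibroblasts. In aldosterone medium it had 2.82, 9.66 and 3.03 CPM in mdx, against 4.48, 2.27 and 2.95 CPM in C57. Replicate 2 was the highest mdx library and the lowest C57 library under both media, and the lines overlapped. The log2 change was 0.69 under each medium, with an SE of 0.57 in vehicle and 0.59 in aldosterone medium. In myotubes Irx2 had 8.10, 8.23 and 5.88 CPM in mdx with vehicle, against 9.38, 6.28 and 5.23 CPM in C57 with vehicle. With aldosterone it had 7.84, 8.68 and 5.88 CPM in mdx, against 8.59, 5.29 and 6.06 CPM in C57. It was the Iroquois gene with the least difference between the lines in myotubes, with log2 changes of 0.08 and 0.15.

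Meox2 lay at 20.3, 20.5 and 16.6 CPM in mdx vehicle fibroblasts, against 17.4, 25.9 and 17.1 CPM in C57 vehicle fibroblasts. In aldosterone medium it lay at 19.2, 21.1 and 18.4 CPM in mdx, against 17.8, 30.2 and 16.9 CPM in C57. The lines overlapped, and C57 replicate 2 was the highest library under both media. In myotubes it was near the lower limit of detection, at 0.271, 0.748 and 0.153 CPM in mdx with vehicle, against 0.0467, 2.71 and 0.0727 CPM in C57 with vehicle. With aldosterone it had 0.261, 1.99 and 1.10 CPM in mdx, against 0, 1.28 and 0.633 CPM in C57. Its log2 change between the lines in myotubes was -1.46 (SE 1.39) with vehicle and 0.73 (SE 1.29) with aldosterone, neither much beyond its SE.

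**Figure D4:**
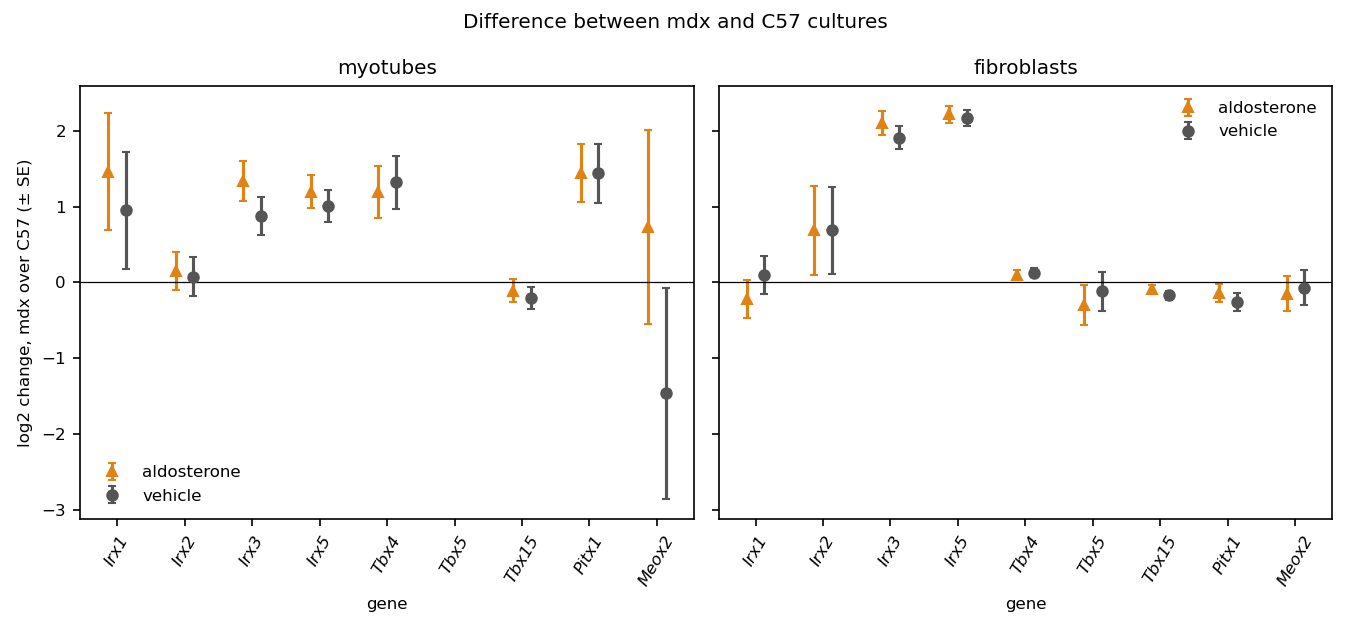
Log2 change of mdx over C57 (y axis, ± SE from the fit) for the 9 genes (x axis) in myotubes (left) and fibroblasts (right), with aldosterone as orange triangles and vehicle as grey circles. Tbx5 was not tested in myotubes. Irx5 stands at 2.17 and Irx3 at 1.91 in vehicle fibroblasts, where Tbx4, Tbx15 and Pitx1 lie between -0.26 and 0.13.

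Between the cell types, 1 gene of the 9 (Tbx15) was called higher in myotubes in both lines, beside 35.5% of all genes in mdx and 36.7% in C57. Irx2 joined it in C57 under median-ratio scaling, DESeq2 and a replicate block. The 9 genes were chosen with the cell types known, so nothing is read from these calls. In vehicle libraries Tbx15 had 223, 265 and 321 CPM in mdx myotubes, against 109, 115 and 109 CPM in mdx fibroblasts. In C57 it had 360, 284 and 285 CPM in vehicle myotubes, against 124, 132 and 121 CPM in vehicle fibroblasts. The cell types did not overlap in either line, and the log2 change of myotubes over fibroblasts was 1.28 (SE 0.12) in mdx and 1.30 (SE 0.12) in C57. Between the lines Tbx15 changed by -0.21 (SE 0.15) in vehicle myotubes, where the lines overlapped. In vehicle fibroblasts it changed by -0.17 (SE 0.06), and the lines did not overlap. In aldosterone libraries it changed between the lines by -0.11 (SE 0.15) in myotubes and -0.09 (SE 0.06) in fibroblasts. In vehicle fibroblasts the lines did not overlap at 4 of 9 genes (Irx3 and Irx5 higher, Pitx1 and Tbx15 lower in mdx), beside 16.9% of all genes. Nothing is read from that count.

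Apart from Irx2, and from Irx5 in C57, the other genes were lower in myotubes. Pitx1 had a log2 change of -2.83 (SE 0.28) in mdx and -4.56 (SE 0.30) in C57, and Tbx4 of -2.54 (SE 0.23) in mdx and -3.74 (SE 0.25) in C57. For Irx3 the wider gap was that of mdx, with -2.37 (SE 0.22) in mdx and -1.35 (SE 0.22) in C57. Irx5 stood at -0.92 (SE 0.16) in mdx and 0.25 (SE 0.16) in C57, and Irx1 at -1.71 (SE 0.55) in mdx and -2.56 (SE 0.58) in C57. Irx2 had 0.37 (SE 0.45) in mdx, where the cell types overlapped, and 0.96 (SE 0.45) in C57, where they did not. Tbx5 averaged 0.435 CPM in mdx vehicle myotubes against 3.98 CPM in mdx vehicle fibroblasts. In C57 it averaged 0.0824 CPM in vehicle myotubes against 4.28 CPM in vehicle fibroblasts. Meox2 had -5.70 (SE 0.86) in mdx and -4.13 (SE 0.69) in C57. In either direction 8 of 9 were called in mdx, beside 70.5% of all genes, and 7 of 9 in C57, beside 74.7%. These shares lie near those of all genes. Called lower in myotubes were 7 of 9 in mdx, beside 35.1% of all genes, and 6 of 9 in C57, beside 38%. The genes were chosen with the cell types known, so nothing is read from these counts.

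Per kilobase of gene length, the order of mean levels differed between the groups. In mdx vehicle fibroblasts Pitx1 averaged 44.2 ± 5.6 CPM per kb, Irx3 36.5 ± 8.4, Tbx15 29.7 ± 0.94, Tbx4 17.1 ± 1.3, Meox2 8.11 ± 0.93, Irx5 5.50 ± 0.59, Irx1 2.62 ± 0.99, Irx2 1.73 ± 0.84 and Tbx5 0.851 ± 0.23 (SD, n = 3). Neighbours in this order whose ranges of mean ± SD overlapped were Pitx1 and Irx3, Irx3 and Tbx15, Irx1 and Irx2, and Irx2 and Tbx5. In C57 vehicle fibroblasts Irx3 came after Tbx4, at 9.75 ± 0.90 CPM per kb, next to Meox2 at 8.54 ± 2.1. Irx5 there had 1.22 ± 0.024 and Irx2 1.08 ± 0.47, whose ranges of mean ± SD overlapped.

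In myotubes Tbx15 led by a wide margin in every group. It averaged 71.9 ± 13 CPM per kb in mdx vehicle myotubes and 82.6 ± 12 in C57 vehicle myotubes. The next genes were Irx3 at 7.14 ± 2.4 and Pitx1 at 6.20 ± 1.4 CPM per kb in mdx, with overlapping ranges of mean ± SD. In C57 they were Irx3 at 3.85 ± 0.29, Pitx1 at 2.28 ± 1.1 and Irx2 at 2.12 ± 0.66 CPM per kb. Among all genes tested in the group, Tbx15 stood at percentile 96.3 of the length-scaled level in mdx vehicle myotubes and 96.8 in C57 vehicle myotubes. Irx3 stood at percentile 93.9 in mdx vehicle fibroblasts and 74.7 in C57 vehicle fibroblasts.

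Tbx15 was lower with aldosterone in every myotube culture, and whether edgeR called it depended on pairing the cultures of the same number. Tbx15 had 193, 211 and 249 CPM in mdx aldosterone myotubes, against 223, 265 and 321 CPM in the mdx vehicle myotubes of the same numbers. In C57 it had 254, 221 and 219 CPM in aldosterone myotubes, against 360, 284 and 285 CPM in vehicle myotubes. It was lower in 6 of 6 cultures, and aldosterone and vehicle libraries overlapped in mdx and were separate in C57. Means were 218 ± 28.6 CPM with aldosterone and 269 ± 49.2 CPM with vehicle in mdx, and 231 ± 19.2 CPM with aldosterone and 310 ± 43.7 CPM with vehicle in C57 (SD, n = 3 each).

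Without pairing, edgeR's quasi-likelihood test called 0 of the 8 tested factors in mdx, in C57 or over the mean of both lines. At an unadjusted p below 0.05 there were 0 in mdx, 1 in C57 and 1 over the mean, and DESeq2 called 0 in each. Of all genes, 0% were called in mdx, 0.0127% in C57 and 0.216% over the mean. The log2 change of Tbx15 was -0.31 (adjusted p 1.00) in mdx, -0.41 (adjusted p 0.880) in C57 and -0.36 (adjusted p 0.291) over the mean, by edgeR. Same-numbered myotube libraries deviated together from their group means, so the culture was also fitted as a block. The labels do not say whether the numbers pair the treatments. The weakest case was C57 number 3, whose deviations correlated at 0.360 with its own number and at 0.353 with another. With it Tbx15 fell by 0.30 on the log2 scale in mdx (SE 0.06, adjusted p 0.0034), by 0.41 in C57 (SE 0.06, adjusted p 6.04e-05) and by 0.35 over the mean (SE 0.04, adjusted p 1.75e-06), by edgeR.

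The blocked fit called 1 of 8 of the factors in mdx (2.33% of all genes, 1.32% lower), 2 of 8 in C57 (4.98%, 2.46% lower) and 2 of 8 over the mean (8.96%, 4.56% lower), each of them lower with aldosterone. The other factor called was Irx3, in C57 and over the mean. It had 7.90, 6.96 and 8.10 CPM in C57 aldosterone myotubes, against 9.89, 10.5 and 11.5 CPM in C57 vehicle myotubes, with no overlap. Its log2 change in C57 was -0.47 with the block (SE 0.11, adjusted p 0.00845) and -0.47 without it (adjusted p 1.00), by edgeR. In mdx myotubes Irx3 was at -0.01 with the block (SE 0.10, adjusted p 0.980, edgeR), from 14.1, 26.7 and 17.9 CPM with aldosterone and 14.3, 27.2 and 17.6 CPM with vehicle. The difference of the effect between the lines, mdx minus C57, was 0.46 for Irx3 (adjusted p 0.719) and 0.11 for Tbx15 (adjusted p 0.963) in the blocked edgeR fit, where 0.0444% of all genes were called. A difference in effect between the lines was not shown for either gene. Aldosterone and vehicle libraries did not overlap at 2 of 8 factors in C57 (14.4% of all genes) and at 0 of 8 in mdx (6.55%).

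In the blocked fit the Tbx15 call held without any 1 of the 3 cultures in C57 (adjusted p 2.22e-05 to 0.0029, edgeR) and without any 1 of 6 over the mean (1.46e-07 to 9.98e-05). In mdx it was lost without replicate 2 (adjusted p 0.0886, edgeR) and without replicate 3 (0.123). The Irx3 call in C57 was lost without replicate 2 (adjusted p 0.0516, edgeR) and without replicate 3 (0.0705). Over the mean of both lines Irx3 was at -0.24 with the block (adjusted p 0.0350, edgeR). That call held without C57 replicate 1 alone, and the highest adjusted p of the other omissions was 0.123. Markers of cell types also moved with aldosterone in the blocked fit. Without the block, edgeR called 0 of the 9 skeletal muscle and 7 fibroblast markers (1 skeletal muscle marker at an unadjusted p below 0.05 in each line and over the mean, and 1 by DESeq2 over the mean). With it, 1 of 9 skeletal muscle markers (Myh3, the embryonic myosin heavy chain) was called lower in mdx and in C57, and 3 (Myh3, Myh8 and Mymk) were called lower over the mean. Their summed level was 23803 to 35645 CPM with aldosterone and 25590 to 36475 CPM with vehicle in mdx myotubes, and 34129 to 37686 CPM with aldosterone and 34856 to 40040 CPM with vehicle in C57 myotubes. Of 7 fibroblast markers, 0 were called in mdx with the block, 1 (Thy1) was called lower in C57, and 2 (Dcn and Thy1) were called lower over the mean. Their sum was 882 to 3448 CPM with aldosterone and 976 to 3272 CPM with vehicle in mdx myotubes, and 380 to 683 CPM with aldosterone and 316 to 956 CPM with vehicle in C57 myotubes.

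Of 6 macrophage markers, 4 (C1qa, Csf1r, Ptprc and Tyrobp) were called higher in mdx and over the mean with the block, and 1 (Tyrobp) was called lower in C57. Their sum was 2.81 to 50.3 CPM with aldosterone and 2.37 to 11.7 CPM with vehicle in mdx myotubes, and 4.16 to 102 CPM with aldosterone and 5.18 to 131 CPM with vehicle in C57 myotubes. Of the other marker lists, the blocked fit called Rgs5, a pericyte marker, lower in mdx and over the mean, Scx, a tendon marker, lower in C57 and over the mean, and Fabp4, an adipocyte marker, higher in mdx and over the mean. Emcn, an endothelial marker, was called higher over the mean alone. Of the Schwann and of the cartilage and bone markers, the block called 0 in either line or over the mean (0 at an unadjusted p below 0.05 without the block, 0 by DESeq2). Lum was at 0 in C57 myotubes with aldosterone, and at least 2 of 4 adipocyte markers were at 0 in each myotube group. The part of these markers in the lower Tbx15 and Irx3 was not tested.

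In fibroblasts that received the medium of aldosterone-treated myotubes, edgeR's quasi-likelihood test called 0 of the 9 factors in either line, with 0 at an unadjusted p below 0.05 and 0 by DESeq2. Over the mean of both lines it called 0 of 9, beside 0.012% of all genes, and within each line it called 0% of all genes. With the culture as a block in the fit of the 12 fibroblast libraries, edgeR called 0 of 9 in mdx as well, beside 0% of all genes. Among fibroblasts the numbers were taken to pair the treatments in mdx alone, on correlations of 0.112 to 0.310. The labels do not say whether they do. Tbx15 had 127, 121 and 115 CPM in mdx fibroblasts in aldosterone medium, against 109, 115 and 109 CPM in mdx fibroblasts in vehicle medium. Tbx15 had a log2 change of 0.11 (SE 0.06, adjusted p 0.915) in mdx and 0.03 (SE 0.06, adjusted p 0.877) in C57, by edgeR. Irx3 had 0.15 (SE 0.15, adjusted p 0.918) in mdx and -0.05 (SE 0.16, adjusted p 0.930) in C57, by edgeR. The 9 genes ranged from -0.16 to 0.15 in mdx and from -0.15 to 0.16 in C57. The libraries of the treatments did not overlap for 1 of 9 genes in mdx (Tbx15, higher), beside 8.88% of all genes, and for 1 of 9 in C57 (Irx5, lower), beside 21.5%. Irx5 had 3.37, 3.53 and 3.47 CPM in C57 fibroblasts in aldosterone medium, against 3.85, 3.89 and 3.74 CPM in C57 fibroblasts in vehicle medium. Its log2 change was -0.15 (SE 0.12, adjusted p 0.627, edgeR).

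**Figure D5:**
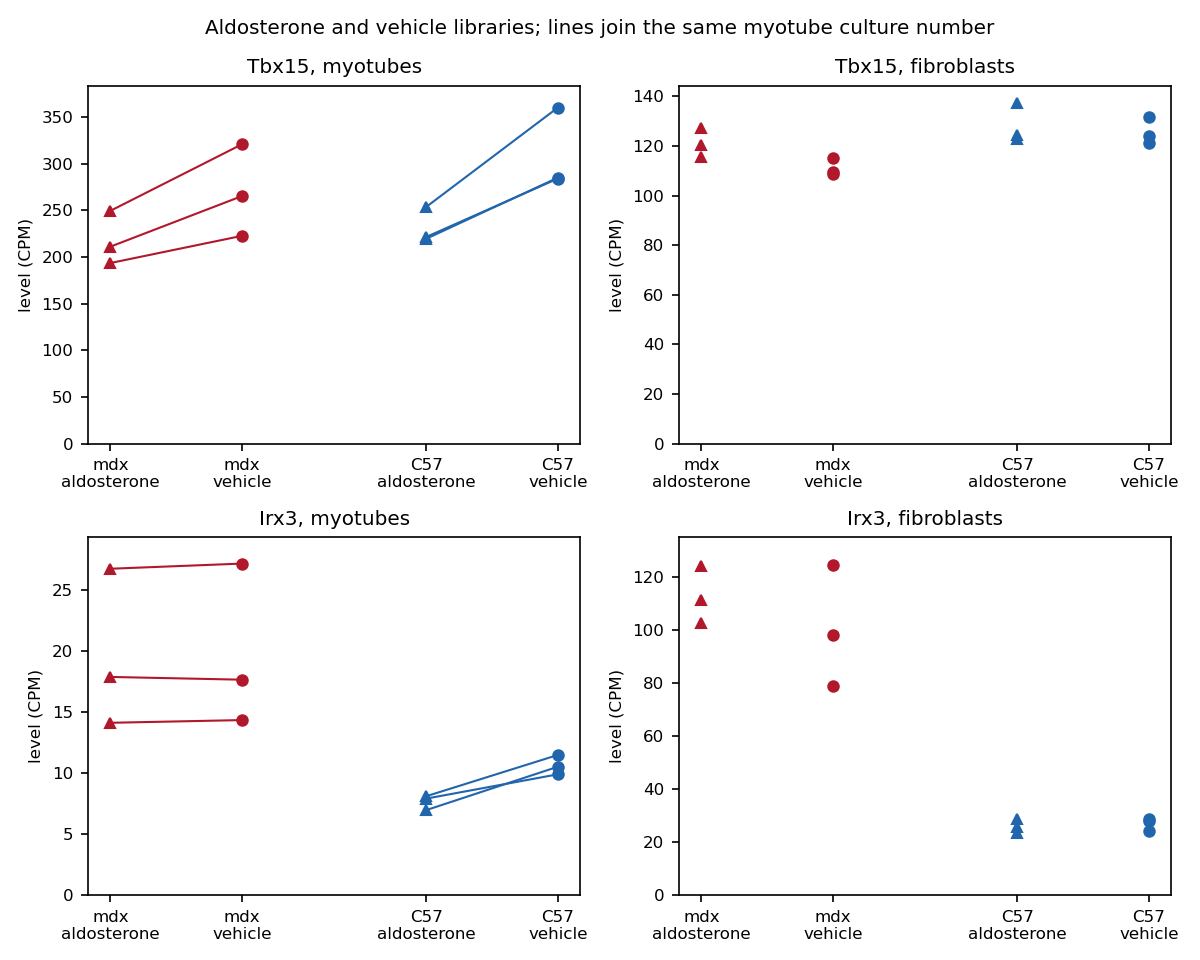
Level of Tbx15 (top) and Irx3 (bottom) in CPM (y axis, from 0) in myotubes (left) and fibroblasts (right), by line and treatment (x axis). Points are libraries, and lines join aldosterone and vehicle myotube libraries of the same culture number. Tbx15 is lower with aldosterone in 6 of 6 myotube cultures, while Irx3 is lower in the 3 C57 cultures and nearly level in mdx.

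The wider families and the limb programme were read from 5 lists. Of 18 other Iroquois, T-box, Pitx and Meox genes, 11 were tested in myotubes and 7 in fibroblasts, and 0 were called between the lines in any group by edgeR. At an unadjusted p below 0.05 there were 3 of 11 in myotubes with each treatment, 2 of 7 in vehicle fibroblasts and 1 of 7 in aldosterone fibroblasts. DESeq2 called 1 in myotubes with each treatment, 0 in vehicle fibroblasts and 1 in aldosterone fibroblasts. The median log2 change of the list was -0.06 in vehicle fibroblasts, beside 0.00 over all genes tested. Irx4 and Irx6, the Iroquois genes outside the 9, had 2 counts each over the 24 libraries.

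Between the cell types 11 of these genes were tested. In mdx, 4 rose and 4 fell in vehicle myotubes, beside 35.5% and 35.1% of all genes. In C57, 5 rose and 4 fell, beside 36.7% and 38% of all genes. Nothing is read from these counts. Pitx3 averaged 21.3 CPM in mdx myotubes against 0.0433 CPM in mdx fibroblasts, and 21.4 CPM in C57 myotubes against 0.00787 CPM in C57 fibroblasts. Tbx1, which acts in head muscle, averaged 32.5 CPM in mdx myotubes against 0.434 CPM in mdx fibroblasts, and 46.7 CPM in C57 myotubes against 0.231 CPM in C57 fibroblasts. Tbx18 was lower, at 16.8 CPM in mdx myotubes against 44.7 CPM in mdx fibroblasts (log2 change -1.41, adjusted p 1.73e-08, edgeR).

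Of 35 limb mesenchyme and axis patterning factors, 28 were tested in fibroblasts. Between the lines 1 rose in vehicle medium and 2 rose in aldosterone medium, beside 1.1% and 1.23% of all genes. Osr1, a zinc finger factor of connective tissue in the limb, averaged 46.6 ± 5.82 CPM in mdx vehicle fibroblasts and 32.1 ± 4.21 CPM in C57 vehicle fibroblasts (SD, n = 3 each). Its log2 change was 0.55 (SE 0.09, adjusted p 0.0082, edgeR), and 0.48 in aldosterone medium (adjusted p 0.0222, edgeR). Six2, a homeobox gene of connective tissue and kidney, averaged 5.96 CPM in mdx fibroblasts and 3.16 CPM in C57 fibroblasts in aldosterone medium, a log2 change of 0.90 (SE 0.18, adjusted p 0.0255, edgeR). The median of the list was 0.04 in vehicle and 0.01 in aldosterone medium, beside 0.00 and 0.01 over all genes. In myotubes 0 of 27 were called by edgeR with either treatment; at an unadjusted p below 0.05 there were 8 with vehicle and 15 with aldosterone, and DESeq2 called 2 and 4.

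Between cell types, 18 of 30 limb mesenchyme factors fell and 7 rose in mdx myotubes, and 21 fell and 6 rose in C57 myotubes. Over all genes tested, 35.1% fell and 35.5% rose in mdx myotubes, and 38% fell and 36.7% rose in C57 myotubes, and the cell-type counts of the other lists below stand beside the same shares. Gli3, the transducer of hedgehog signals in the limb, averaged 20.7 CPM in mdx myotubes against 77.8 CPM in mdx fibroblasts. Prrx2, a mesenchymal homeobox gene, averaged 71.1 CPM in mdx myotubes against 190 CPM in mdx fibroblasts.

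Of 15 limb signalling genes with known links to the 9 factors, 12 were tested. Between the lines 1 was called: Cdkn2a, a cell cycle inhibitor locus, averaged 44.4 CPM in mdx fibroblasts and 55.4 CPM in C57 fibroblasts in aldosterone medium, a log2 change of -0.33 (adjusted p 0.0445, edgeR). Of the 12, 0 were called in vehicle fibroblasts by edgeR (5 at an unadjusted p below 0.05, 2 by DESeq2). Between cell types 5 rose and 5 fell in mdx myotubes, and 2 rose and 7 fell in C57 myotubes. Grem1, a BMP antagonist of the limb bud, averaged 126 CPM in mdx myotubes against 702 CPM in mdx fibroblasts. Fgfr2 averaged 3.71 CPM in mdx myotubes against 87.9 CPM in mdx fibroblasts, and Cyp26b1, which breaks down retinoic acid, 25.1 CPM against 413 CPM. Cdkn1a averaged 1554 CPM in mdx myotubes against 538 CPM in mdx fibroblasts.

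Of 15 Hox genes from the 5′ ends of the clusters, which set position along the limb, 0 were called between the lines by edgeR in either cell type. At an unadjusted p below 0.05 there were 3 with vehicle and 4 with aldosterone in myotubes, and 7 and 8 in fibroblasts, and DESeq2 called 1 in each but aldosterone fibroblasts, where it called 2. Between cell types 5 rose and 8 fell in mdx myotubes, and 4 rose and 7 fell in C57 myotubes. Hoxc11 averaged 19.1 CPM in mdx myotubes against 7.59 CPM in mdx fibroblasts, and Hoxa11 9.46 CPM in mdx myotubes against 20.8 CPM in mdx fibroblasts. Hoxd9 averaged 22.9 CPM in mdx myotubes against 10.1 CPM in mdx fibroblasts, and Hoxc9 15.0 CPM in mdx myotubes against 8.35 CPM in mdx fibroblasts. In C57 vehicle cultures Hoxa10 averaged 28.7 CPM in myotubes against 63.5 CPM in fibroblasts. Of 9 muscle precursor factors, 8 rose in mdx myotubes and 7 in C57 myotubes, and 0 fell. Myf5 averaged 54.6 CPM in mdx myotubes and had 0 CPM in every mdx vehicle fibroblast library, and Pax7, the satellite cell factor, averaged 9.06 CPM in mdx myotubes against 0.0634 CPM in mdx fibroblasts. Lbx1 averaged 41.0 CPM in mdx myotubes against 0.0447 CPM in mdx fibroblasts, and Myod1 283 CPM in mdx myotubes against 0.203 CPM in mdx fibroblasts. The 4 of this list tested within fibroblasts were Myod1, Myog, Six4 and Met, with adjusted p between the lines from 0.621 to 0.816 in vehicle medium by edgeR.

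With aldosterone, edgeR without the block called 0 genes of the 5 lists in myotubes. At an unadjusted p below 0.05 there was at most 1 gene per list and comparison, and DESeq2 called 1 limb mesenchyme factor over the mean of both lines. With the block, and beside 2.33% of all genes in mdx and 4.98% in C57, Barx2, a homeobox gene of muscle and cartilage, fell by 0.54 on the log2 scale in mdx myotubes (adjusted p 0.0461, edgeR) and by 0.57 in C57 myotubes (adjusted p 0.0135, edgeR). Pbx3 fell by 0.42 in C57 (adjusted p 0.0084, edgeR), and Lbx1, which guides limb muscle precursors, by 0.25 (adjusted p 0.0339, edgeR). Of 11 other Iroquois, T-box, Pitx and Meox genes, the block called 0 in mdx (0 without the block at an unadjusted p below 0.05 or by DESeq2), and 1 lower in C57 and over the mean. Grem1 fell by 0.34 in mdx (adjusted p 0.0071, edgeR). In the other direction, Myf5 rose by 0.28 in C57 (adjusted p 0.0149, edgeR), Cyp26b1 by 0.47 in C57 (adjusted p 0.0079, edgeR) and Cdkn2a by 0.26 in mdx (adjusted p 0.0312, edgeR).

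The genes whose pattern over the 24 libraries was most like each factor were taken by Pearson's r of log2 CPM among 14269 protein-coding genes. The points share their libraries, so r is a description. For most of the factors the widest spread is the gap between the cell types. Irx5 differed more between the lines, by 2.17 in vehicle fibroblasts and 1.00 in vehicle myotubes on the log2 scale. Pitx1 was most like Ltbp2 (0.997), Tbx4 most like the collagen receptor Ddr2 (0.996), Tbx5 most like Map6 (0.987) and Meox2 most like Adam12 (0.978). Tbx15 was most like Ttc3 (0.984), Irx1 like Lmx1b (0.963), Irx3 like Zfp512b (0.932) and Sall1 (0.921), and Irx2 like Gata3 (0.879). Irx5 was most like Tlr4 (0.923) and Cd59a (0.886). Cd59a had 17.8 to 26.2 CPM in the 12 mdx libraries and 5.46 to 10.9 CPM in the 12 C57 libraries. With Spearman's correlation 5 of the 27 genes named this way, 3 for each factor, remained.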

How the data were processed

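Values are whole-number counts of reads per gene that the authors deposited, made with featureCounts 1.5.0-p3 on build mm39 per the submitters' processing notes. An aligner is not named here. FPKM columns in the same table were left out, and 0 columns lacked a sample. Libraries were poly(A) RNA from a non-directional kit, per the labels' protocols, so overlapping genes share reads. Samples were grouped by the labels, and p-values measure the spread between 3 labelled biological replicates.

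Counts were analysed in R 4.3.3. The 12 libraries of a cell type (24 between cell types) were fitted together with edgeR 4.0.16 (default filter on low counts, TMM scaling, robust quasi-likelihood test), and p-values were Benjamini-Hochberg adjusted over the 15763 genes tested in myotubes, 16671 in fibroblasts and 17864 across both. A gene was called at an adjusted p below 0.05. SE is the log2 change divided by the square root of F. CPM are TMM-scaled, and levels per kb use the deposited gene lengths. Depth ranged from 14133165 to 42698139 counts per library. The fits were tested on simulated data.

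Alternatives were median-ratio scaling, no filter, DESeq2 1.42.0, a replicate block and leaving out each library. The pairing check came first: deviations of same-numbered aldosterone and vehicle libraries correlated at 0.470 to 0.669 in mdx myotubes, 0.360 to 0.702 in C57 myotubes, 0.112 to 0.310 in mdx fibroblasts and -0.0153 to 0.130 in C57 fibroblasts. Numbers were therefore taken to pair treatments in myotubes and in mdx fibroblasts. Between lines (-0.186 to 0.338) and cell types (0.000245 to 0.156) not every correlation was above 0.1, and the numbers were not taken to pair them.

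The 9 members and all lists were chosen with earlier results of these data known. Named genes are the members, up to 4 called genes of each of 5 lists per comparison by adjusted p, called neighbours within 500 kb, and the 3 genes most like each member; some genes named by this rule are not reported here. Tlr4 and Cd59a levels, and marker lists of 9 cell types, serve as checks. Of those, endothelial, macrophage, Schwann, pericyte, tendon and adipocyte sums overlapped between the lines in fibroblasts, and all of these but the endothelial sum overlapped in myotubes.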

Additional observations from a re-analysis of the deposited data

Results flagged for a closer look

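Under vehicle, the log2 change of Irx5 in mdx over C57 was 1.00 (SE 0.21) in myotubes and 2.17 (SE 0.11) in fibroblasts. Each value came from the fit of the 12 libraries of that cell type. In a fit of all 24 libraries, the change in myotubes minus that in fibroblasts was -1.17 (SE 0.23). This difference was listed here because an interaction term called it. Irx5 was chosen with this difference between the lines known, so the value is a description, given without a p, and nothing is read from the call. Leaving out 1 library at a time moved the value between -1.35 and -0.986, and 9 of the 12 omissions ended the call.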

How the results depend on the processing

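Leaving out 1 library gave log2 changes between the lines in fibroblasts of 1.73 to 2.04 (vehicle) and 2.03 to 2.18 (aldosterone) for Irx3, and of 2.09 to 2.23 and 2.15 to 2.27 for Irx5. These genes were chosen with that difference known, so its direction is no sign of stability. Over all genes, 57 were called between the lines in vehicle myotubes, 49 in aldosterone myotubes, 184 in vehicle fibroblasts, 205 in aldosterone fibroblasts and 41 for the line difference between cell types. Without the filter these were 156, 163, 436, 452 and 77, and with DESeq2 373, 457, 474, 551 and 282. For aldosterone the counts were 0 in mdx myotubes, 2 in C57 myotubes, 34 over the mean of myotubes, 0 in mdx fibroblasts, 0 in C57 fibroblasts and 2 over the mean of fibroblasts. Without the filter they were 16 in mdx myotubes, 26 in C57 myotubes, 84 over the mean of myotubes, 2 in mdx fibroblasts, 65 in C57 fibroblasts and 215 over the mean of fibroblasts. With DESeq2 they were 19, 54, 162, 0, 74 and 274. Members called between the lines in vehicle myotubes went to 1 without the filter and 4 with DESeq2. DESeq2 also called 4 in aldosterone myotubes and 4 for the line difference between cell types.

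With the replicate block, the aldosterone comparisons called 367 genes in mdx myotubes (1 member), 785 in C57 myotubes (2), 1412 over the mean (2) and 7 for the difference between lines. The block by number, which was not taken to pair the lines, gave 433 genes (2 members) in vehicle myotubes and 397 (2) in aldosterone myotubes. Comparisons that involve both cell types had a block by line and number, which was not taken to pair the cell types. That block gave 159 genes for the line difference between cell types. The other counts of members stayed as they were under these blocks, but for 8 in place of 7 between cell types in C57. Pairing with 1 culture left out, an alternative chosen after the data were seen, gave 300, 101 and 149 genes in mdx myotubes (0 to 1 member) and 438, 857 and 401 in C57 (1 to 2), without replicates 1, 2 and 3. Over the mean it gave 1120, 836 and 739 without mdx and 1064, 1713 and 912 without C57 replicates (1 to 2 members), and for the difference 16, 2 and 23 without mdx and 13, 7 and 5 without C57 replicates.

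Leaving out 1 library without pairing gave 20 to 104 genes between the lines in vehicle myotubes (104 without mdx replicate 3), 12 to 37 in aldosterone myotubes (0 to 1 member), 93 to 249 in vehicle fibroblasts, 89 to 170 in aldosterone fibroblasts and 0 to 280 for the line difference between cell types (0 to 3 members; 280 genes without mdx vehicle myotube replicate 3, 0 without mdx vehicle fibroblast replicate 2). For aldosterone it gave 0 in mdx and 0 in C57 myotubes, 14 to 47 over their mean, 0 to 24 in mdx fibroblasts and 1 to 950 over the mean of fibroblasts, where 950 came without mdx aldosterone replicate 2. Between cell types it gave 11839 to 12310 in mdx and 12743 to 12964 in C57, with 7 to 8 members each. The causes of these shifts were not tested. Irx2 between cell types in C57 was called under median-ratio scaling (log2 1.02), DESeq2 (1.03) and the block (1.02). Ranking by CPM without length put Tbx15 before Irx3 in mdx fibroblasts, and Spearman's correlation changed the most similar gene of 8 of 9 factors. Low counts limit Tbx5, Meox2 and Irx1 in myotubes.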
